A study of Mus musculus with 8 samples.

Results

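Slit ligands, Robo receptors and the srGAPs that act below them were examined in mouse embryonic stem cells (mESCs). The set held 10 genes of the 19429 in the deposited table, namely Slit1, Slit2, Slit3, Robo1, Robo2, Robo3, Robo4, Srgap1, Srgap2 and Srgap3. All 10 were found by an exact match of the gene name, and each matched 1 row. They were chosen by their place in a single signalling system, with the study's fold changes between the genotypes already known. The members were thus in part selected on that genotype contrast, which is not used as evidence of anything here.

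The cells were LF2 mESCs grown with LIF and serum. RNA-seq covered WT lines 2 and 5, with wild-type TET1, and D2018A lines 7 and 8, in which an aspartate of TET1, a dioxygenase that oxidises 5-methylcytosine, was replaced by alanine on both alleles to weaken binding of the O-GlcNAc transferase OGT. Each line was sequenced in 2 technical replicates, giving 4 libraries per genotype. All lines, controls included, carried a C-terminal FLAG tag on TET1, were edited with Cas9 and grew from single cells, so each line is a clone. The WT cells also carried a deletion distal to the cut site that the D2018A cells did not have.

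Slits are large secreted proteins with leucine-rich repeats, first known for repelling growing axons at the midline of the nervous system. They bind the immunoglobulin domains of the receptors Robo1 and Robo2, and heparan sulfate at the cell surface stabilises the complex. The cytoplasmic tails of Robo proteins recruit srGAPs, which carry a membrane-bending F-BAR domain, and other regulators of actin.

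The level used for each gene was the authors' mean normalised count, in which counts are divided by a size factor per library and averaged over the libraries of the authors' fit. This value pools both genotypes. It carries no standard deviation and no n, so no difference between WT and D2018A and no spread between lines is given for any member. The lowest means in the table fell on 12 steps, each shared by 38 to 123 genes, as a single read in 1 library would give. The mean therefore appeared to cover 12 libraries where 8 are described, and the size factors read from the steps ran from 0.726 to 1.47. If so, 4 further libraries also entered every level given here. Intervals are 95% Poisson intervals for the fewest reads these size factors allow, and cover counting error only.

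The cells expressed the genes that define mESCs. All 11 embryonic stem cell markers lay above the median of protein-coding genes, from 520 normalised counts per kilobase for Zfp42 to 5903 for Utf1. Pou5f1 stood at 894, Sox2 at 1527 and Nanog at 2572. Each of these levels was above that of every Slit, Robo and srGAP gene.

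The 2 more abundant Slit ligands, Slit2 and Slit3, lie on different chromosomes and both hold a copy of the microRNA gene for miR-218. Mir218-1 lies in Slit2 (GRCm38.p6, chr5:48223942-48224051, plus strand) and Mir218-2 in Slit3 (chr11:35616816-35616925, plus strand). Both are on the strand of their host and touch none of its annotated exons. The products from the 5′ arm are identical, while those from the 3′ arm differ. The mature sequences from RefSeq are given with bases 2 to 8, the seed, in capitals.

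mmu-miR-218-5p: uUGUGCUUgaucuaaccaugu

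mmu-miR-218-1-3p: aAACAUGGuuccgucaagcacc

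mmu-miR-218-2-3p: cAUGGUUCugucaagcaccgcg

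Mir691 lies likewise within Robo2 (chr16:74341990-74342067, minus strand) outside its exons. Levels of these microRNAs were not analysed here, and the level of a host gene is not a measure of the microRNA.

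The 3′ untranslated regions of the members were then searched for the 7 bases complementary to the seed of mmu-miR-218-5p, on the transcript strand, in the GENCODE vM21 transcript with the longest coding sequence. Of the 10 members, 6 held at least 1 match, with 7 matches in all, and 4 (Slit1, Slit3, Robo4 and Srgap1) held none. Among 16390 protein-coding genes of the table with such a region, 13.2% held a match. The members had longer regions, with a median of 1502 bases against 893. Of the 4 without a match, however, Slit1 (192 bases), Slit3 (365) and Robo4 (634) had short regions, which leave little room for a match. Srgap1 had 4407 bases. Robo3 held a match in a region of 343 bases. Per kilobase, matches numbered 0.327 in the members and 0.114 in all genes. No test was made of this difference, and a match is not evidence of a functional site.

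The 6 genes with a match included 3 of the 4 receptors, the ligand Slit2 that itself hosts Mir218-1, and the effectors Srgap2 and Srgap3. In Robo1, Srgap2 and 1 of the 2 matches in Robo2 the match was followed by an adenine, a type known as an 8mer match. Each match is printed with 14 bases before it and 1 base after, with the 7 complementary bases in capitals.

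Robo1, bases 986 to 992 after the stop codon: ttttttggttttaaAAGCACAa

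Robo2, bases 461 to 467: ttttatttggtgatAAGCACAa

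Robo2, bases 2787 to 2793: gtcacggcagacccAAGCACAg

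Robo3, bases 137 to 143: cttgtgactcactgAAGCACAc

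Slit2, bases 302 to 308: gccaatactagcagAAGCACAt

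Srgap2, bases 2829 to 2835: ttgggaaaaatccaAAGCACAa

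Srgap3, bases 2541 to 2547: attcacatttagggAAGCACAc

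**Figure D1:**
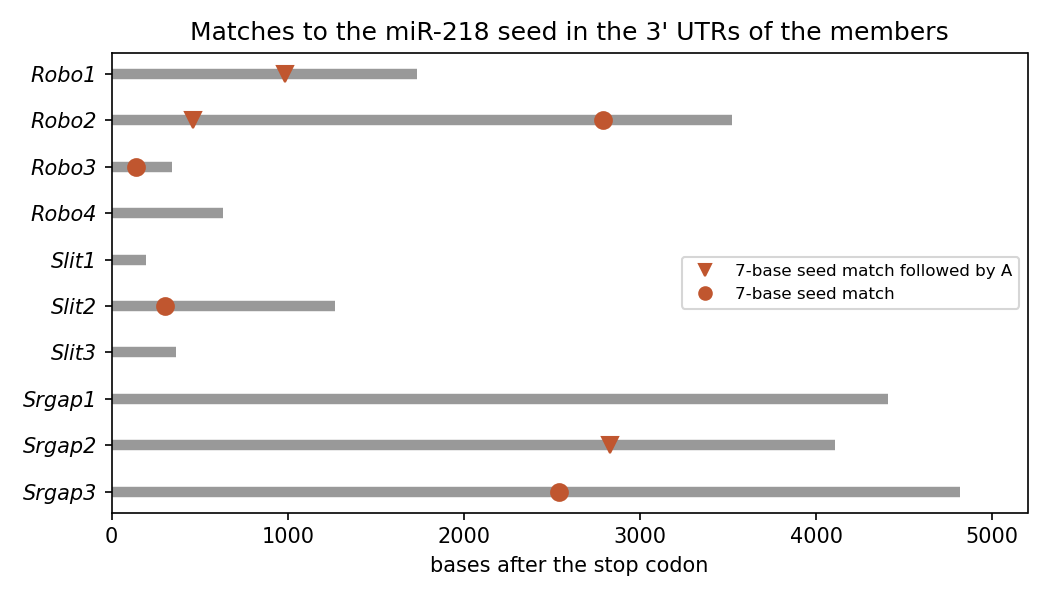
Position of matches to the seed of miR-218 in the 3′ untranslated region of each member, in bases after the stop codon. Grey bars show the length of the region, triangles a 7-base match followed by A and circles a 7-base match alone. Robo2 has 2 matches, while Srgap1 has none in a region of 4407 bases.

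Next, the levels of the ligands were compared. Slit2 (ENSMUSG00000031558; chromosome 5, 47983138 to 48307733, plus strand) had a mean of 273 normalised counts, with a counting interval from 263 to 285. Slit3 (ENSMUSG00000056427; chromosome 11, 35121224 to 35708507, plus strand) had 70.6, from 65.2 to 76.4. Slit1 (ENSMUSG00000025020; chromosome 19, 41600257 to 41743665, minus strand), best known from the nervous system, had 7.29, from 5.61 to 9.32. All 3 genes have 36 exons in their longest transcript and coding lengths within a narrow range, from 4569 bases in Slit3 to 4626 in Slit2.

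The order of Slit2 and Slit3 depended on the length by which their counts were divided. Over all exonic bases Slit3 stood at 11.6 normalised counts per kilobase, from 10.7 to 12.6, and Slit2 at 10.8, from 10.3 to 11.2, so the counting intervals overlapped. Over the longest transcript Slit2 stood at 27.5 per kilobase against 13.5 for Slit3, and over the coding length at 59.1 against 15.5. Slit2 has 23 annotated transcripts and 25433 exonic bases, against 9960 in the longest transcript, and for Slit3 these lengths are 6067 and 5228. Slit1 was the lowest of the ligands by each of these lengths, at 1.23 per kilobase of exonic bases. Slit2 was 8.73 times as high as Slit1 by exonic bases, 21.4 times by the longest transcript and 37.2 times by the coding length.

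Among the receptors, Robo1 was by far the most abundant. Robo1 (ENSMUSG00000022883; chromosome 16, 72663149 to 73046095, plus strand), a receptor found in many tissues, had a mean of 1045 normalised counts, with a counting interval from 1023 to 1067. This came to 63.3 per kilobase of exonic bases and to 73.5% of the summed level of the 4 receptors. Its level was 5.89 times that of Slit2 over exonic bases, 5.03 times over the longest transcript and 3.63 times over the coding length.

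Robo2 (ENSMUSG00000052516; chromosome 16, 73892306 to 74411825, minus strand), the close relative that lies next to Robo1, was nearly silent. Its mean was 1.74 normalised counts, with a counting interval from 0.975 to 2.86. The mean itself corresponds to between 15.1 and 30.7 reads over all libraries, given the range of size factors. Robo1 stood 618 times as high as Robo2 per kilobase of exonic bases and 561 times per kilobase of coding length. The ends of both genes face each other across 846210 bases, with no other gene of the table between them. These positions are those of the table, which for Robo1 and Robo2 differ from the GENCODE annotation that gave their lengths. On the far side of Robo2, Rbm11 had a mean of 0.0797 normalised counts, and beyond Robo1, Gbe1 had 58.1.

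Robo3 and Robo4 form the second receptor pair. Robo4 (ENSMUSG00000032125; chromosome 9, 37401897 to 37415115, plus strand), known as a receptor of endothelial cells, had a mean of 112 normalised counts, with a counting interval from 105 to 119. Robo3 (ENSMUSG00000032128; chromosome 9, 37415669 to 37433246, minus strand), known from commissural axons, had 11.4, from 9.23 to 13.8. The genes converge with 553 bases between their ends, so reads that run past the end of one lie close to the other. Per kilobase of exonic bases Robo4 stood at 21.1 and Robo3 at 1.66, a ratio of 12.7.

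The level of Robo4 was set beside those of endothelial markers. Of the 8 listed, 7 were in the table, with levels from 0.734 per kilobase for Erg to 269 for Pecam1 and a sum of 317. Erg, Kdr (0.834), Tie1 (2.58), Cdh5 (3.62) and Tek (5.12) lay below Robo4, whereas Vwf (34.4) and Pecam1 lay above it. The other listed marker, Emcn, had no row and so no level. The part of these markers in the level of Robo4 was not tested. In RNA from a bulk culture, expression in few cells and low expression in all cells cannot be told apart.

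Markers of other cell types were measured at the same scale, since Slit1, Robo2 and Robo3 are best known from neurons. All 8 neural markers were in the table, with a sum of 1031 per kilobase and 2 above the protein-coding median. They ran from 0.257 for Olig2 to 929 for Tubb3, and Sox1 stood at 41.2. Of 8 fibroblast markers 5 were in the table, from 0.00948 for Col3a1 to 64.8 for Thy1, with a median of 15.3. The 6 primitive endoderm markers ran from 1.57 for Pdgfra to 261 for Lama1, with a median of 9.73. The 5 trophoblast markers ran from 0.192 for Elf5 to 460 for Tfap2c, with a median of 3.48. Their part in the levels of the members was not tested.

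The srGAPs were the only family in which every member lay above the median of the table's protein-coding genes. That median was 24.5 normalised counts per kilobase of exonic bases. Over the longest transcript or the coding length Srgap1 fell below the corresponding median. Srgap2 (ENSMUSG00000026425; chromosome 1, 131285251 to 131527352, minus strand), which promotes filopodia-like protrusions and spine maturation in neurons, had a mean of 2059 normalised counts, with a counting interval from 2029 to 2089. Srgap3 (ENSMUSG00000030257; chromosome 6, 112717971 to 112947266, minus strand), also known as WRP for its binding to the actin regulator WAVE1, had 451, from 437 to 465. Srgap1 (ENSMUSG00000020121; chromosome 10, 121780991 to 122047315, minus strand), whose GTPase-activating domain acts on Cdc42, had 241, from 231 to 252.

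Per kilobase of exonic bases Srgap2 stood at 164, Srgap3 at 45.8 and Srgap1 at 26.4. Srgap2 thus held 69.4% of the summed level of its family and was the highest of all 10 members by each of the 3 lengths. Srgap2 and Fam72a diverge from starts 550 bases apart, and Fam72a had a mean of 60.2 normalised counts. Srgap3 overlaps the non-coding gene Gm44081 on the opposite strand by 150 exonic bases, and Gm44081 had a mean of only 0.326.

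**Figure D2:**
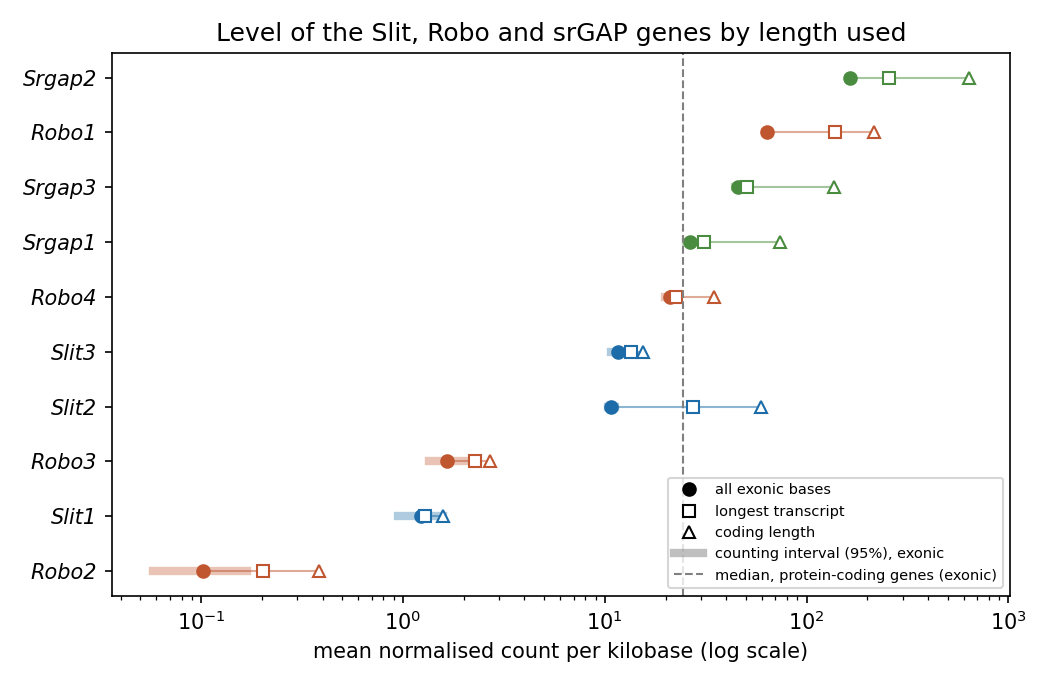
Mean normalised count per kilobase of each member on a log scale, divided by all exonic bases (filled circles, with 95% counting intervals as thick bars), the longest transcript (squares) or the coding length (triangles). The dashed line is the median of protein-coding genes over exonic bases, 24.5, and applies to the circles only. The corresponding medians, not drawn, are 33.4 for the squares and 79.9 for the triangles. Slit2 is the member that moves most with the choice of length, by 5.50 times.

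The order of the members from the highest was Srgap2, Robo1, Srgap3, Srgap1, Robo4, Slit3, Slit2, Robo3, Slit1 and Robo2 over exonic bases. Over the longest transcript, and likewise over the coding length, it was the same except that Slit2 moved from the seventh place to the fifth. Of neighbours in the first order, counting intervals overlapped for Slit3 with Slit2 and for Robo3 with Slit1. The spread between lines could not be set against any of these steps.

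The possibility that reads of 1 member were counted for another was checked from the sequence of the transcripts. No stretch of 50 bases, the read length, was shared between transcripts of any 2 members. At most 1.45% of the stretches of a member, in Srgap3, also occurred in transcripts of another gene, and 6 of the 10 shared none.

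To place the members among other genes, levels per kilobase of exonic bases were ranked over the 16922 protein-coding genes of the table with a length. Genes without a row there, such as Epha3, entered neither the ranks nor the medians. Both therefore hold among listed genes only. Srgap2 was at percentile 82.2, Robo1 at 65.4, Srgap3 at 59.9 and Srgap1 at 51.1. Robo4 (47.6), Slit3 (39.5) and Slit2 (38.6) lay below the median. Robo3 was at percentile 22.5, Slit1 at 20.3 and Robo2 at 5.47. Of the members 4 of 10 therefore exceeded the median, and 8 of 10 had a mean of at least 10 normalised counts, against 73.3% of protein-coding genes. Robo3, at 11.4, lay just above that value and Slit1, at 7.29, just below. Percentiles moved with the length used. Over the longest transcript Robo1 was at 74.4 and Slit2 at 47.0, both higher, while Srgap3 was at 56.7 and Srgap1 at 48.9, both lower.

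**Figure D3:**
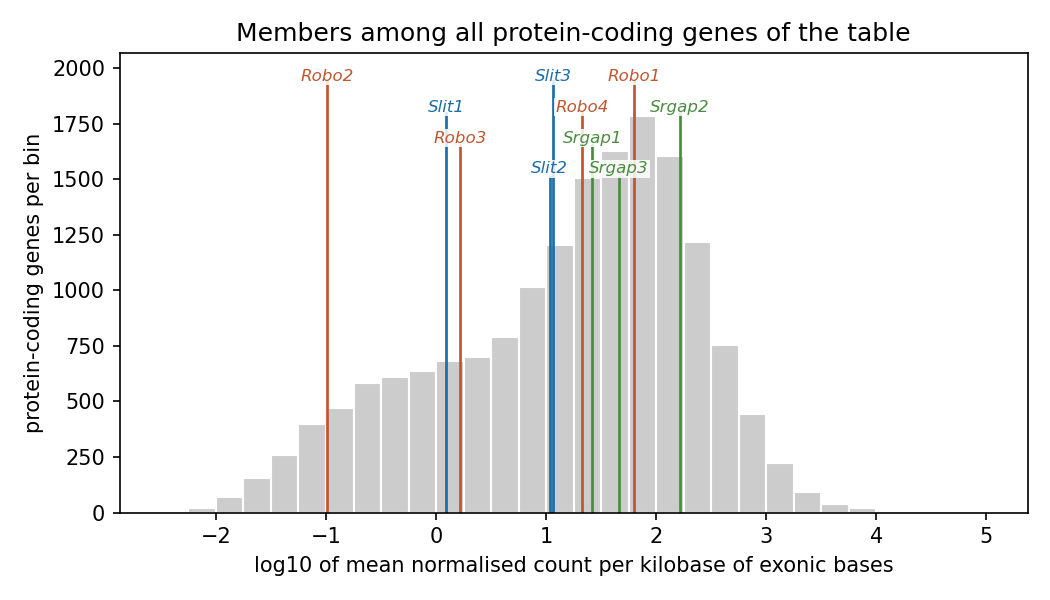
Number of protein-coding genes by the log10 of their mean normalised count per kilobase of exonic bases (grey bars), with the 10 members as lines (blue, Slit; orange, Robo; green, srGAP). Robo2 stands apart at the low end, at percentile 5.47, and Srgap2 is farthest to the right, at 82.2.

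The remaining components of the pathway were taken from lists. The first list joined surface and matrix partners of Slit with enzymes that make heparan sulfate. All 10 of its genes were in the table, with a median of 112 normalised counts per kilobase, and 9 lay above the protein-coding median. The highest were Dag1 (972), which encodes the Slit-binding matrix receptor dystroglycan, Hs6st1 (454), a heparan sulfate sulfotransferase, and Plxna1 (447), a plexin. The lowest were Sdc3 (23.8), a syndecan, the sulfotransferase Hs2st1 (37.1) and Gpc1 (54.4), a glypican. Of the other heparan sulfate enzymes, Ext1 stood at 64.6, Ndst1 at 111 and Ext2 at 160.

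Cytoplasmic effectors of Robo were likewise broadly expressed, with a median of 137 over 23 genes, of which 19 lay above the protein-coding median. Cap1 (2006), an actin-binding cyclase-associated protein, Vasp (1109), an actin polymerase, and Cdc42 (1101), the GTPase on which Srgap1 acts, were the highest. Cap2 (2.92), Cables1 (8.05) and the adaptor Nck1 (12.9) were the lowest. Of the adaptor pair, Nck2 stood at 49.5, above Nck1. Arhgap4, the relative of srGAPs with a similar domain order, stood at 19.1, below all 3 of them.

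By contrast, partners and alternative ligands of Robo had a median of 5.77 over 7 genes, and 2 lay above the protein-coding median. These were Unc5b (62.4), a netrin receptor that also binds Robo4, and Usp33 (35.8), a deubiquitinase that binds Robo1. Dcc (0.149), the netrin receptor that Robo1 can silence, Nell1 (0.804) and Nell2 (1.38), a ligand of Robo3, were the lowest. Flrt3 and Cdh2 stood at 5.77 and 13.2.

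The members were also set beside other guidance systems at the same scale. Their median was 16.4 normalised counts per kilobase, against 10.4 for netrins and netrin receptors (8 of 10 listed genes in the table, without Ntn3 and Ntn5), 4.59 for class 3 semaphorins and their receptors (13 of 13), and 23.3 for ephrins and Eph receptors (21 of 22, without Epha3). The members include the cytoplasmic srGAPs, at 26.4 to 164 per kilobase, whereas the other lists hold only ligands and receptors. The medians therefore do not cover like parts of each system. The Slit genes alone had a median of 10.8 and the Robo genes one of 11.4. Each system spanned a wide range. Netrins and their receptors ran from Unc5c, Dcc and Ntn4, all at most 0.318, to Unc5b, Neo1 (175) and Ntn1 (253), and semaphorins from Sema3a, Sema3d and Sema3g, all at most 0.140, to Plxna3 (84.6), Nrp2 (107) and Plxna1 (447). Eph genes ran from Epha5, Epha6 and Ephb1, all at most 0.157, to Ephb3 (144), Ephb4 (193) and Epha2 (278). No test was made between these lists.

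**Figure D4:**
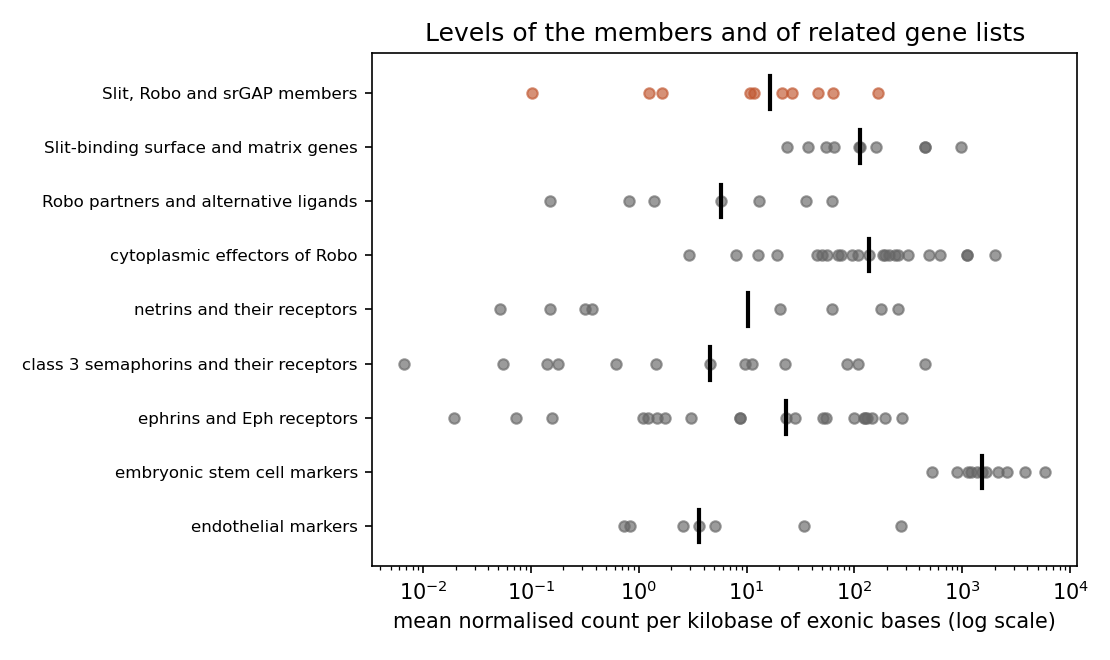
Mean normalised count per kilobase of exonic bases, on a log scale, for the 10 members (orange) and the genes of other lists (grey), 1 point per gene, with the median of each list as a black bar. The members' median is 16.4, between those of the effectors (137) and of the semaphorin list (4.59), and all embryonic stem cell markers lie to the right of every member.

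Finally, the promoters of the members were described, because the study concerns enzymes that act on cytosine in CpG. RefSeq promoter windows (GRCm38.p6, 250 bases before to 50 after the start) were found for 9 members, all but Slit1. For each gene the window nearest to the start in the table was used. Robo2 had 3 listed windows, and the CpG content of those not used was not described. By a GC content of at least 50% and an observed over expected CpG of at least 0.6, 6 of the 9 were rich in CpG, against 59.5% of 12882 protein-coding genes of the table with a window. Of these 6, Robo3 only just met the limit, at 0.6003. The median level of these genes was 54.4 normalised counts per kilobase for CpG-rich promoters and 4.34 for the others. The lower quartiles were 14.4 and 0.376.

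Level and CpG content did not run in parallel within the set. Srgap1, Slit3 and Slit2 had the highest ratios, at 0.949, 0.928 and 0.900, and had levels in the middle of the set. Robo1, the second in level, had 0.653 and 15 CpG, while its nearly silent neighbour Robo2 had 0.554 and 17 CpG, just below the limit. Robo4 had 0.106, with 2 CpG in 300 bases, and stood above all 3 ligands over exonic bases. Srgap3 was the other member below the limit, at 0.447.

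Of 2 short motifs searched on both strands, TATAAA was found in 2 of the 9 windows, Slit2 and Srgap3, against 8.44% of the genes' windows and 13.6% of all 32851 windows. In Slit2 it began at base -28 from the start and in Srgap3 at base -72. The GC box core GGGCGG was found in 6 of 9, all but Robo1, Robo2 and Robo4, against 58.8% and 35.7%. A match to such letters is a description of the sequence and not evidence of binding.

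The windows of 4 genes are shown, with CpG in capitals, to set the receptors Robo1 and Robo2, the CpG-poor Robo4 and the CpG-rich ligand gene Slit2 side by side.

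Slit2, chr5:47982905-47983204, plus strand: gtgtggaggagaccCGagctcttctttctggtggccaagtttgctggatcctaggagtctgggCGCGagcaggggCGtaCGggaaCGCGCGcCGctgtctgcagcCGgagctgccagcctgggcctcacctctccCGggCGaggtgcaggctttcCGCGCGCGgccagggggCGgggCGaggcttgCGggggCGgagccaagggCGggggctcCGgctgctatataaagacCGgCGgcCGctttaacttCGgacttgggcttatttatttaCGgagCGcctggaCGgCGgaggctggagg

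Robo1, chr16:72662899-72663198, plus strand: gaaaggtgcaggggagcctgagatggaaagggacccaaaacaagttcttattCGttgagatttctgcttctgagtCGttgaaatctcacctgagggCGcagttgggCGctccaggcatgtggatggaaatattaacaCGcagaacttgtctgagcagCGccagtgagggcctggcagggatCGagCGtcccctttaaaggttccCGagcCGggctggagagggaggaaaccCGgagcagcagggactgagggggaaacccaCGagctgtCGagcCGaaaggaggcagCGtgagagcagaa

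Robo2, chr16:74411776-74412075, minus strand: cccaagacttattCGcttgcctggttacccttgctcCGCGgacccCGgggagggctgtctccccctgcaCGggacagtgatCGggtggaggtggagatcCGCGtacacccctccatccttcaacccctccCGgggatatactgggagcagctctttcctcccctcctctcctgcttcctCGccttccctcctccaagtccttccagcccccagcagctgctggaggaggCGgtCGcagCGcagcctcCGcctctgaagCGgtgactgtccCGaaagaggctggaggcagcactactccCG

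Robo4, chr9:37401722-37402021, plus strand: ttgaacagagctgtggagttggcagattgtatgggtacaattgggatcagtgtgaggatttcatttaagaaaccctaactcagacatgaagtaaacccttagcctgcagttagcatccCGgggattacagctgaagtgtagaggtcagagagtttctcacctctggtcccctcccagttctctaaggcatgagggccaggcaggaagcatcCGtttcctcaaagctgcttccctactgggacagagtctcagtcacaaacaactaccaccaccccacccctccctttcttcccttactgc

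**Figure D5:**
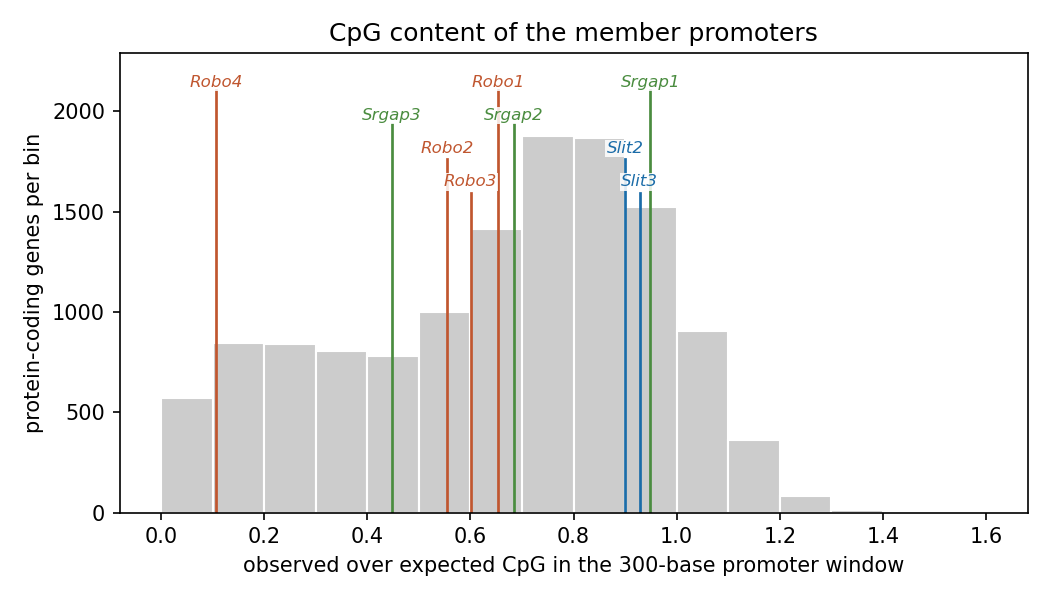
Number of protein-coding genes by observed over expected CpG in the promoter window of 300 bases (grey bars), with the 9 members that had a window as lines (blue, Slit; orange, Robo; green, srGAP). Robo4 lies at the low end, at 0.106, and Srgap1 at the high end of the members, at 0.949.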

How the data were processed

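Total RNA of 8 libraries was depleted of ribosomal RNA, made into Lexogen SENSE libraries and sequenced as single-end reads of 50 bases. According to the methods and the submitters' processing notes, the authors aligned reads to GRCm38.p6 and counted them per gene with STAR 2.5.3a, then normalised with DESeq2 1.20.0. The strand setting and the annotation release were not given in the sources used here.

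The deposited table holds 19429 genes. Its mean column is a signal made by the authors, gene counts divided by a size factor per library and averaged over the libraries of their fit, with no value per library. Its further number columns hold the authors' own comparison of the genotypes (log2 fold change, standard error, statistic, p and adjusted p) and were not used. The planned edgeR test on counts summed per line needs values per library and was not run.

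Lengths came from GENCODE vM21 (GRCm38), which matched 19342 identifiers, and levels are means divided by all exonic bases of a gene. Coordinates of the members are those of the table, which matched GENCODE for 8 of 10, all but Robo1 and Robo2. Single-read steps needed at least 30 genes and could not be sums of lower steps. The search was also run on simulated data, with a narrower range of size factors than found here. There no sum of lower steps could fall among the single-read steps, so that part of the search was not tested. Depth per library was not analysed here. The range of size factors puts the lowest member, Robo2, at 15.1 to 30.7 reads in all. Sequences are from RefSeq on GRCm38.p6 and GENCODE transcripts. Named genes were all members, neighbours and overlapping genes in the table where described, the 3 highest and 3 lowest of each pathway list, and hosted microRNAs. Other genes of a list were named after their values were seen. The members and lists were chosen with earlier results of these data known. Tools were Python 3.11.15, pandas 2.3.3, scipy 1.17.1 and matplotlib 3.10.9.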

Additional observations from a re-analysis of the deposited data

Results flagged for a closer look

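The mean of the deposited table appeared to cover more libraries than the study describes. Its lowest values showed 12 single-read steps where 8 samples are listed, so 4 libraries outside the groups may enter the level of every member. Which cells these libraries came from was not analysed here. Which libraries hold the reads of the lowest members, Robo2, Slit1 and Robo3, cannot be told from a pooled mean.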

How the results depend on the processing

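No paired analysis was possible because the table gives 1 pooled mean per gene and no value per library, and for the same reason no library or line could be left out and no tool compared. The number of members with a mean of at least 10 was 8, and 9 and 7 with a mean of at least 5 and 20. The 12 steps were found with at least 15 genes per step too, and 2 with at least 60, since few steps hold that many genes. The number of members above the protein-coding median was 4, and 3 with the longest transcript or the coding length. The members' median percentile of 43.5 was 49.2 among all biotypes and 35.7 among protein-coding genes with a mean of at least 1, which follows from the lowest genes added or left out. Slit3 held 49.3% of the Slit level over exonic bases, 20.1% of the undivided mean and 32.0% over the longest transcript, a length added once the values were known, and Slit2 led in both. Robo1 held 73.5%, and 89.3% of the undivided mean and 84.6% over the longest transcript. The share of Srgap2, 69.4%, was 74.8% and 75.8%. The coding length was taken from GENCODE, since RefSeq proteins were not used here, and protein identity between members was not run. Depth limits Robo2 most, where 0.975 to 2.86 normalised counts were compatible with its reads.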
